A study of Mus musculus with 11 samples.

Results

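The genes described here are 41 genes of the response to replication stress and DNA damage, out of 54838 genes counted in mouse embryonic stem cells (ESCs). They were taken by their role and not by a rule on their values, but earlier results of these data were known when they were chosen. The roles are the ATR-CHK1 checkpoint (12 genes), double-strand break signalling (8), homologous recombination and end resection (9), the Fanconi anaemia pathway and fork remodelling (5), end joining (4), and mismatch and single-strand break repair (3). The cells were of the E14 line, grown with LIF, and carried no genetic change named in the labels. They were transfected for 36 h with a control scramble siRNA (3 libraries), CMTR1 siRNA 1 (4 libraries) or CMTR1 siRNA 2 (4 libraries), so all groups shared the line, the medium and a transfected siRNA. CMTR1 methylates the ribose of the first transcribed nucleotide of mRNA, next to the cap, and the comparison asks how the RNA of these genes stood when its expression was targeted. The methods name 3 biological replicates for sequenced RNA, whereas each CMTR1 siRNA has 4 libraries, and the source of the added library is not given. Neither the methods nor the labels say whether the replicates were separate cultures, and p-values measure the spread between these libraries.

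As background, a stalled replication fork exposes single-stranded DNA, which recruits ATR with its partner ATRIP. ATR then phosphorylates CHK1 (Chek1), which slows the cell cycle and holds back new origins. A broken DNA end is instead signalled by ATM through the MRE11-RAD50-NBN complex, and is joined directly by end joining or copied from the sister chromatid by homologous recombination. ESCs spend most of their cycle in S phase and are known for high levels of repair factors. These pathways are switched largely by phosphorylation of proteins already present, and RNA-seq does not read phosphorylation.

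Counted reads ranged from 6738478 to 8382318 per library, and the 41 genes together took 5666 to 6142 CPM (counts scaled to the library's total). All 41 passed the filter on low counts (more than 1 CPM in at least 4 libraries), and their counts ran from 98 reads (Wrn) to 9453 reads (Rif1) in single libraries. Cmtr1, the targeted gene, had 21.3, 21.7 and 17.9 CPM in controls, 21.1, 21.3, 16.2 and 18.04 CPM under siRNA 1 and 15.6, 16.8, 16.4 and 19.5 CPM under siRNA 2. The siRNA 1 libraries overlapped the controls, 3 of the 4 siRNA 2 libraries lay below them, and neither siRNA changed Cmtr1 past the threshold (log2FC −0.09 ± 0.11 with siRNA 1, adjusted p = 0.74, and −0.25 ± 0.11 with siRNA 2, adjusted p = 0.14; edgeR quasi-likelihood test, log2 fold change ± SE). Other annotated genes share exon bases of Cmtr1 (36.3% with Gm28043 and Gm28052 on the same strand and 47.2% with Ccdc167 on the opposite strand), so its count is uncertain, and the labels could not be checked from the targeted gene. Of 8 ESC marker genes, summed at 1669 to 1754 CPM in controls, 6 fell with siRNA 1 and 4 fell with siRNA 2, and the sums were 1364 to 1561 and 1502 to 1580 CPM. Among all 16073 genes tested, 435 rose and 316 fell with siRNA 1, and 991 rose and 571 fell with siRNA 2. Of the 6 tested fibroblast marker genes none was called with siRNA 1 in edgeR, DESeq2 or exactTest (1 at an unadjusted p under 0.05), whereas 2 rose and 1 fell with siRNA 2, and the sums of all 8 listed were 39.2 to 48.6, 38.1 to 51.6 and 49.2 to 55.1 CPM in the control, siRNA 1 and siRNA 2 libraries. Lum and Postn, which mark fibroblasts, had no reads in 8 and 10 of the 11 libraries. The 6 tested had reads in every library, from Col3a1 (0.247 to 2.16 CPM) to Col1a1 (7.89 to 16.7 CPM) and Pdgfra (12.3 to 23.2 CPM). Neural markers summed to 163.0 to 163.3 CPM in controls, 176 to 195 with siRNA 1 and 175 to 207 with siRNA 2, and 1 of 5 tested rose with siRNA 1 and 2 rose with siRNA 2. The highest of them, Nes (57.1 to 92.3 CPM), was the only neural marker that DESeq2 called against control. The median log2FC of the 5 was 0.25 with siRNA 1 and 0.03 with siRNA 2, compared with 0.02 and 0.03 for all genes tested. None of the tested mesoderm, endoderm or trophoblast markers (3 of each) was called with either siRNA in edgeR, DESeq2 or exactTest (0 to 2 per list at an unadjusted p under 0.05), and these lists summed to at most 10.8, 20.4 and 44.2 CPM in any library. The trophoblast sums were 33.8 to 40.8 CPM in controls, 39.9 to 44.2 with siRNA 1 and 29.0 to 32.9 with siRNA 2. In edgeR, 1 of the 3 trophoblast markers was lower with siRNA 2 than with siRNA 1. What part these changes in marker levels had in the values of repair genes was not tested. In bulk libraries fewer cells of a type and less RNA per cell cannot be told apart.

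Promoter sequence was read from RefSeq on GRCm38.p6, as 300 bases from 250 before to 50 after each annotated start, for the 31 members listed there (34 windows, since 3 genes have a pair of starts). E2F factors switch on S-phase genes, and many repair genes are known targets. The 4 E2F spellings searched on both strands (TTTCCCGC, TTTGGCGC, TTTCGCGC and TTTGCCGC) were found in 8 of 34 windows (23.5%), compared with 554 of 13874 windows of tested genes (3.99%) and 744 of all 32851 windows (2.26%). A match is a description of letters, not of binding. These 8 stretches are shown because the shared spelling was not used to choose the genes. Each is 30 bases, 5′ to 3′ in the direction of the gene, with the E2F spelling or its reverse complement in capitals.
Bard1 (chr1:71103163-71103192, minus strand): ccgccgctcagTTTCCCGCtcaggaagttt
Brca2 (chr5:150522442-150522471, plus strand): tttaggccacaGCGGGAAAcagacacacac
Chek2 (chr5:110839820-110839849, plus strand): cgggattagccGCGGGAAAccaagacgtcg
Clspn (chr4:126556990-126557019, plus strand): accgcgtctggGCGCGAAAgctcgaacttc
Mdc1 (chr17:35841471-35841500, plus strand): tcttcagcctgTTTCCCGCcggtagccgca
Msh6 (chr17:87975054-87975083, plus strand): ctcctcccgacTTTCCCGCcagcggcggcc
Topbp1 (chr9:103305187-103305216, plus strand): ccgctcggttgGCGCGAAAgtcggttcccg
Xrcc6 (chr15:82016312-82016341, plus strand): agggggtggaaGCGGGAAAtgcgagtgggc
The matches began at positions −209 (Bard1), −168 (Brca2), −152 (Chek2), −129 (Topbp1), −46 (Xrcc6), −16 (Mdc1), 15 (Msh6) and 21 (Clspn), where 0 is the annotated start. Thus, by the RefSeq starts, 6 began upstream of the start and 2 within the transcript. The Xrcc6 stretch lies inside the gene as annotated by GENCODE (chromosome 15, 81987835 to 82040085), so its start differs between the 2 sources. The genes come from 5 of the 6 role groups, with none from the Fanconi group.

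Other spellings were counted in the same way. CCAAT was in 18 of 34 windows (52.9%, compared with 37.8% of windows of tested genes), and TTTGAA, the spelling of the cell cycle homology region (CHR), was in 3 (8.82% compared with 11.99%). The spellings of the GC box (GGGGCGGGG), ETS factors (CCGGAAGT) and a TATA box (TATAAA) were in 5 (14.7% compared with 21.1%), 4 (11.8% compared with 7.60%) and 2 windows (5.88% compared with 7.23%). The consensus of NRF1 was in 1 window (2.94% compared with 1.97%) and that of YY1 in 0 (compared with 1.87%). CMTR1 acts on the first transcribed nucleotide, so the annotated start base was also counted. It was G in 18 windows (52.9%), A in 10 (29.4%), C in 3 (8.82%) and T in 3 (8.82%), and in windows of tested genes it was G in 46.5%, A in 29.1%, C in 14.9% and T in 9.49%. Annotated starts were not measured in these libraries. Of the 5 members called in a comparison below, 3 have a window, and 30 bases around their start are shown with the annotated start base in capitals.
Trp53bp1 (chr2:121271393-121271422, minus strand): ccgatattgcgtgacGtgacgggaaaaggg
Atm (chr9:53536657-53536686, minus strand): ttaccaacttgctgcTttatagagccggaa
Xrcc1 (chr7:24546684-24546713, plus strand): ctcttttggtgttagGtcatgagctaagag
The annotated start base was G in Trp53bp1 and Xrcc1, and T in Atm. These starts are those of RefSeq, whereas the gene positions given below are those of GENCODE. For Atm and Xrcc1 the 30 bases lie wholly inside the GENCODE gene, so the start differs between the 2 sources.

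Levels were compared between genes as CPM per kb of exon, the scale that allows for gene length. Exon length was the union of all annotated exons of a gene, and the lengths of the transcripts present were not measured. In the control libraries they covered a 63.7-fold range, with a median of 15.2 CPM per kb (n = 41 genes). Msh6, which recognises mismatches as part of MutSα, was the highest at 142 ± 5.66 CPM per kb (SD, n = 3 libraries). It was followed by Rif1, a telomere- and break-associated protein that times replication, at 97.3 ± 3.56, and Parp1, the sensor of single-strand breaks, at 86.2 ± 2.83 CPM per kb. Tipin (58.6 ± 3.78) and Xrcc5, which encodes Ku80, (42.6 ± 2.01) were the other genes above 40 CPM per kb. Each of these 5 was separated from the next gene in the order in all 3 control libraries. Below them, 25 genes lay between 10 and 30 CPM per kb, and 11 were under 10 CPM per kb. The upstream kinase Atr, at 4.34 ± 0.287, was the third lowest, and its substrate Chek1 was at 14.3 ± 0.130 CPM per kb. This order rests on exon length, which was 23629 bases for Atr and 4635 bases for Chek1. In CPM, Atr was the higher (103 ± 6.78 compared with 66.3 ± 0.604, SD, n = 3). Lig4, the ligase of end joining, was at 3.92 ± 0.355, and Wrn, a RecQ helicase, was the lowest at 2.22 ± 0.237 CPM per kb. Of the 40 pairs of neighbours in this order, 23 overlapped in their control libraries and are not ordered beyond their spread. The highest level per group was that of Tipin (checkpoint), Rif1 (break signalling), Brca1 (recombination), Fanci (Fanconi), Xrcc5 (end joining) and Msh6 (mismatch repair).

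**Figure D1:**
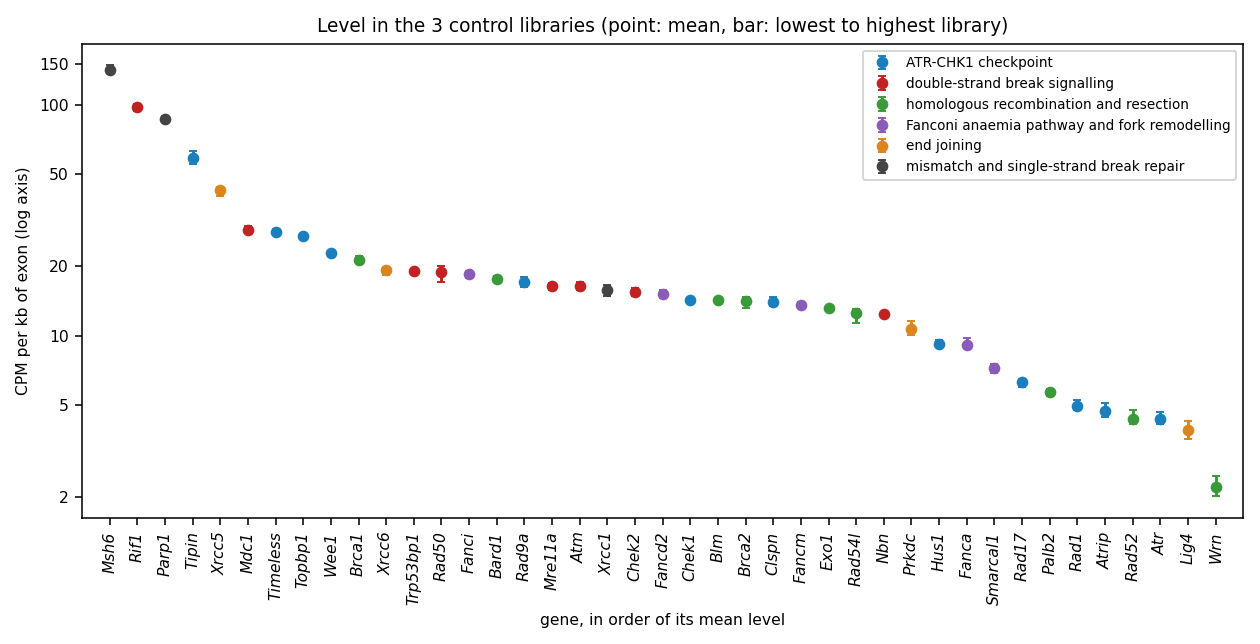
Level of each of the 41 genes in the 3 control libraries, in CPM per kb of exon on a log axis, coloured by role group, with the point at the mean and the bar from the lowest to the highest library. Msh6, Rif1, Parp1, Tipin and Xrcc5 stand above 40 CPM per kb, most genes lie between 10 and 30, and Wrn is the lowest at 2.22.

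With siRNA 1, Trp53bp1 rose and Atm fell, and the other 39 genes did not pass the test. That is 2 of 41 genes called at an adjusted p of at most 0.05 (4.88%), compared with 4.67% of the 16073 genes tested, of which 2.71% rose and 1.97% fell (435 and 316 genes; 346 and 400 with TMM scaling). With siRNA 2 only Trp53bp1 was called among the 41 genes, as a rise (2.44%, compared with 9.72% of all genes tested and 6.17% for rises alone, which were 991 genes with 571 falls, or 728 and 734 with TMM scaling). With both siRNAs combined, Trp53bp1 was again the 1 gene called (2.44%, compared with 6.91% of all genes tested and 4.19% for rises alone, which were 673 genes with 437 falls, or 509 and 573 with TMM scaling). In this setting these shares are near or below the background of all genes. With both combined, 4 of 41 were called under TMM scaling and in DESeq2, a larger share than the 6.73% and 4.67% of all genes tested. At an unadjusted p under 0.05 the counts were 9 with siRNA 1 (background 16.8% of all genes), 8 with siRNA 2 (background 23.2%) and 8 with both (background 19.7%). The siRNA 1 libraries were separate from the controls in 6 of 41 genes (14.6%, background 15.5%) and the siRNA 2 libraries in 5 (12.2%, background 19.4%).

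The median log2FC of the 41 genes was −0.04 with siRNA 1, −0.0092 with siRNA 2 and −0.02 with both combined, and that of all genes tested was 0.02, 0.03 and 0.02. Values below 0 were seen in 25 of 41 genes with siRNA 1 (61.0%, compared with 43.2% of all genes tested), in 22 with siRNA 2 (53.7%, compared with 42.9%) and in 24 with both (58.5%, compared with 42.9%). With TMM scaling in place of library totals the medians of the 41 genes were −0.06, −0.03 and −0.04. The medians of all genes tested moved down too, to 0.0042, 0.0040 and 0.0025. Members below 0 then numbered 30, 24 and 31, and 31, 25 and 31 in DESeq2. The shares of all genes below 0 were taken with library totals only. Changes were small: the 95% interval lay within 0.3 of 0 on the log2 scale (18.8% lower to 23.1% higher) in 40 of 41 genes with either siRNA. The exceptions were Atrip with siRNA 1, whose interval reached 0.31, and Wrn with siRNA 2, whose interval reached −0.32.

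**Figure D2:**
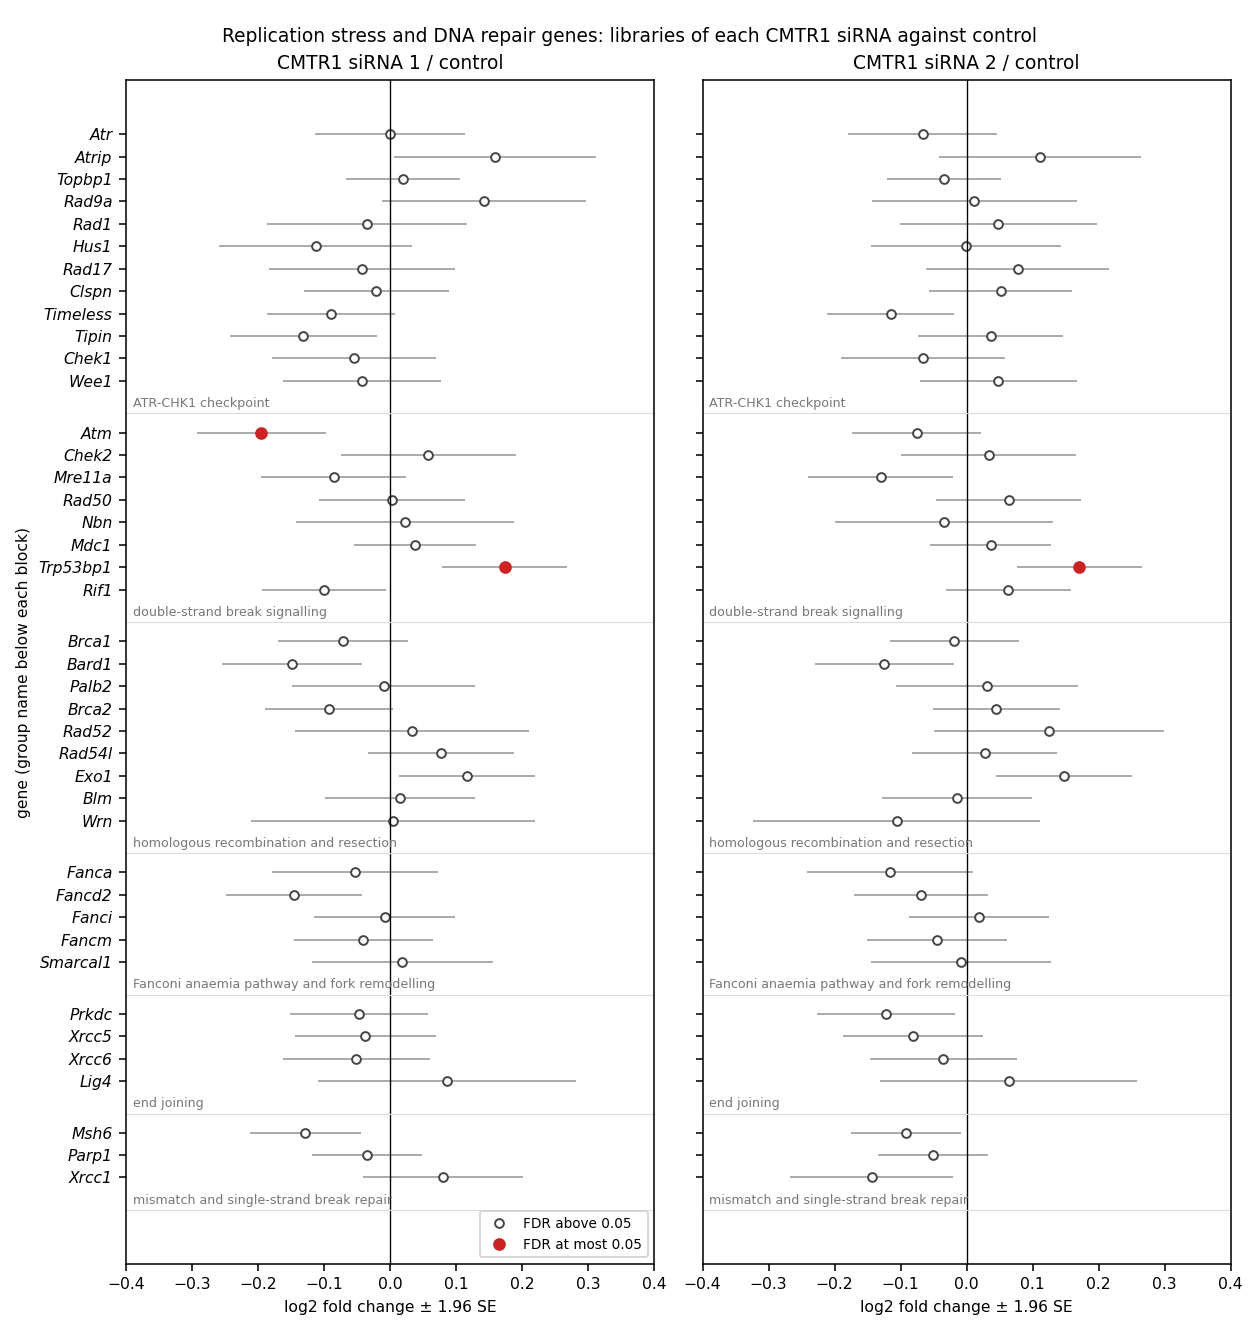
Log2 fold change of the 41 genes with CMTR1 siRNA 1 (left) and CMTR1 siRNA 2 (right) against control siRNA, in blocks by role, with bars for the 95% interval. Filled points are at an adjusted p of at most 0.05, which are Atm and Trp53bp1 with siRNA 1 and Trp53bp1 with siRNA 2, and the remaining points are open and lie between −0.15 and 0.16.

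In double-strand break signalling (8 genes), 1 gene rose and 1 fell with siRNA 1, and 1 rose with siRNA 2. Trp53bp1 (ENSMUSG00000043909; chromosome 2, 121193281 to 121271407, minus strand) encodes 53BP1, which binds chromatin around breaks and shields DNA ends from resection. Trp53bp1 stood at 275, 263 and 271 CPM in controls, at 314, 326, 284 and 294 CPM under siRNA 1 and at 316, 312, 286 and 302 CPM under siRNA 2. All 8 CMTR1 siRNA libraries lay above all 3 control libraries. It was 12.8% higher with siRNA 1 (log2FC 0.17 ± 0.05, adjusted p = 0.025), 12.6% higher with siRNA 2 (0.17 ± 0.05, adjusted p = 0.017) and 12.7% higher with both combined (0.17 ± 0.04, adjusted p = 0.0084). The siRNAs differed from each other by −0.0024 (95% interval −0.09 to 0.08). The combined call was lost when control replicate 2 was left out (adjusted p = 0.094). The siRNA 1 call was lost without control replicate 2 or 3 or siRNA 1 replicate 1 or 2 (adjusted p from 0.07 to 0.17), with TMM scaling (0.059) and in DESeq2 (0.071). The siRNA 2 call was lost without control replicate 2 or 3 or siRNA 2 replicate 1 (adjusted p from 0.058 to 0.10) and in DESeq2 (0.067). Of the exon bases of Trp53bp1, 15.04% also belong to Tubgcp4 on the opposite strand, and the sources used here do not state whether counting used strand. Tubgcp4 itself differed by −0.03 ± 0.07 with siRNA 1 and −0.06 ± 0.07 with siRNA 2.

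Atm (ENSMUSG00000034218; chromosome 9, 53439149 to 53536740, minus strand) encodes the kinase that starts the signal from broken DNA ends. Atm stood at 172, 176 and 163 CPM in controls, at 143, 147, 149 and 154 CPM under siRNA 1 and at 158, 152, 166 and 169 CPM under siRNA 2. All 4 siRNA 1 libraries lay below the control libraries, and the siRNA 2 libraries overlapped them. Atm fell by 12.7% with siRNA 1 (log2FC −0.20 ± 0.05, adjusted p = 0.014), and with siRNA 2 it differed by −0.08 ± 0.05 (adjusted p = 0.37). The difference between the siRNAs, 0.12 ± 0.05, did not pass the test (adjusted p = 0.11), so the fall is not shown to differ between them. With both combined Atm just missed the threshold (−0.14 ± 0.04, adjusted p = 0.051), and it was called there with TMM scaling, with the replicate block, without the most counted gene in the library sizes, in DESeq2, and without siRNA 2 replicate 3 or 4 (adjusted p from 0.018 to 0.29 over its alternatives). The siRNA 1 call was lost without control replicate 1 or 2 or siRNA 1 replicate 2 (adjusted p from 0.053 to 0.12). Npat is a histone gene activator whose GENCODE start lies 307 bases from the GENCODE start of Atm, on the other strand. Npat was at 96.6 ± 4.22 CPM in controls, 96.8 ± 3.56 with siRNA 1 and 107 ± 3.63 with siRNA 2 (SD, n = 3, 4 and 4). It did not pass the test (adjusted p = 0.99 and 0.086).

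The other break signalling genes did not pass the test against control. Rif1 acts downstream of 53BP1 in end protection. Rif1 stood at 1028, 1055 and 981 CPM in controls, at 881, 931, 1011 and 989 CPM under siRNA 1 and at 1067, 977, 1059 and 1167 CPM under siRNA 2. Its groups overlapped, with the lowest value in siRNA 1 replicate 1 and the highest in siRNA 2 replicate 4. Mre11a, Rad50 and Nbn, which form the complex that senses ends, had log2FCs of −0.09, 0.0021 and 0.02 with siRNA 1 and −0.13, 0.06 and −0.03 with siRNA 2. Mdc1, the scaffold on phosphorylated H2AX, and Chek2, the kinase activated by ATM, lay between 0.03 and 0.06 with either siRNA.

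In the ATR-CHK1 checkpoint (12 genes), none passed the edgeR test with either siRNA, nor did any in DESeq2 or exactTest (2 and 1 were at an unadjusted p under 0.05). The median log2FC was −0.04 with siRNA 1 and 0.02 with siRNA 2. Atr stood at 110.5, 98.3 and 99.2 CPM in controls, at 96.3, 108, 101 and 105 CPM under siRNA 1 and at 92.9, 94.01, 100.2 and 105 CPM under siRNA 2. Chek1 stood at 66.5, 65.6 and 66.8 CPM in controls, at 60.99, 60.2, 68.7 and 65.4 CPM under siRNA 1 and at 58.7, 64.2, 61.6 and 68.4 CPM under siRNA 2. The libraries of each gene overlapped between all groups. The log2FC of Atr was −0.00046 ± 0.06 with siRNA 1 (95% interval −0.11 to 0.11) and −0.07 ± 0.06 with siRNA 2 (95% interval −0.18 to 0.05). That of Chek1 was −0.05 ± 0.06 (95% interval −0.18 to 0.07) and −0.07 ± 0.06 (95% interval −0.19 to 0.06).

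Timeless and Tipin, whose products ride with the replication fork as a complex and help to activate CHK1, are given because Timeless had the lowest unadjusted p of the group with both siRNAs combined and Tipin the highest level. Timeless stood at 168, 177 and 171 CPM in controls, at 157, 171, 151 and 167 CPM under siRNA 1 and at 155, 160.5, 159 and 160.3 CPM under siRNA 2. Tipin stood at 108, 117 and 103 CPM in controls, at 93.8, 100.5, 105 and 101 CPM under siRNA 1 and at 116, 115, 104 and 115 CPM under siRNA 2. The siRNA 2 libraries of Timeless lay below the control libraries, and those of Tipin overlapped them. Timeless differed by −0.09 ± 0.05 with siRNA 1 (adjusted p = 0.36) and −0.12 ± 0.05 with siRNA 2 (adjusted p = 0.14). Tipin differed by −0.13 ± 0.06 (adjusted p = 0.20) and 0.04 ± 0.06 (adjusted p = 0.75). The other checkpoint genes were Atrip, the partner of ATR, Topbp1, its activator, Rad9a, Rad1 and Hus1, which form the 9-1-1 clamp, its loader Rad17, the adaptor Clspn, and Wee1, the kinase that restrains CDK1. They ranged from −0.11 (Hus1) to 0.16 (Atrip) with siRNA 1 and from −0.03 (Topbp1) to 0.11 (Atrip) with siRNA 2. Atrip shares 16.04% of its exon bases with Trex1 on the same strand, which makes its count uncertain.

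In homologous recombination and resection (9 genes), none passed the test with either siRNA in edgeR, DESeq2 or exactTest, and 2 were at an unadjusted p under 0.05 with each. Bard1, the partner of BRCA1 in its ubiquitin ligase, had the lowest unadjusted p with both siRNAs combined. Bard1 stood at 99.2, 103 and 97.7 CPM in controls, at 94.2, 91.2, 88.4 and 86.7 CPM under siRNA 1 and at 89.8, 91.7, 94.5 and 90.3 CPM under siRNA 2. All 8 CMTR1 siRNA libraries lay below the controls. Its log2FC was −0.15 ± 0.05 with siRNA 1 (adjusted p = 0.11), −0.12 ± 0.05 with siRNA 2 (adjusted p = 0.14) and −0.14 ± 0.05 with both (adjusted p = 0.072), and it was called with both combined under TMM scaling and in DESeq2 (adjusted p from 0.031 to 0.31 over its alternatives). Brca1 stood at 176, 179 and 188 CPM in controls, at 171, 165, 176 and 178 CPM under siRNA 1 and at 183, 164, 189 and 180.0 CPM under siRNA 2. Brca1, the highest of the group per kb of exon, overlapped between all groups (log2FC −0.07 ± 0.05 with siRNA 1 and −0.02 ± 0.05 with siRNA 2). Exo1, the nuclease of long-range resection, also kept all 8 siRNA libraries above the controls. Exo1 stood at 109, 113 and 110.2 CPM in controls, at 122, 123, 119 and 116 CPM under siRNA 1 and at 117, 117, 127 and 129 CPM under siRNA 2. It was chosen after its values were seen, and did not pass the test (0.12 ± 0.05, adjusted p = 0.24, and 0.15 ± 0.05, adjusted p = 0.066). Complete separation of all 8 libraries from the controls was seen in 3 of 41 genes (Bard1, Exo1 and Trp53bp1; 7.32%), compared with 6.23% of all genes tested. The remaining genes, Brca2 and its partner Palb2, Rad52, Rad54l, and the RecQ helicases Blm and Wrn, ranged from −0.09 (Brca2) to 0.08 (Rad54l) with siRNA 1 and from −0.11 (Wrn) to 0.13 (Rad52) with siRNA 2. Rad54l shares 15.4% of its exon bases with Lrrc41 on the other strand.

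In the Fanconi anaemia pathway and fork remodelling (5 genes), none passed the test with either siRNA in edgeR, DESeq2 or exactTest, and 1 and 0 were at an unadjusted p under 0.05. Fancd2 and Fanci form the clamp that is ubiquitinated at crosslinks. Fancd2 stood at 122, 115 and 125 CPM in controls, at 107, 115, 108 and 105 CPM under siRNA 1 and at 113, 113, 117 and 116 CPM under siRNA 2. Fanci stood at 103, 110.3 and 107 CPM in controls, at 105, 107, 111 and 102 CPM under siRNA 1 and at 112, 104, 114 and 104 CPM under siRNA 2. The siRNA 1 libraries of Fancd2 reached no further than the lowest control library, and those of Fanci overlapped the controls. Fancd2 differed by −0.15 ± 0.05 with siRNA 1 (adjusted p = 0.10) and −0.07 ± 0.05 with siRNA 2 (adjusted p = 0.44). Fanci differed by −0.0088 ± 0.05 and 0.02 ± 0.05. Fanca of the core complex, the translocase Fancm and the fork remodeller Smarcal1 lay between −0.12 and 0.02 with either siRNA. Fanci shares 15.95% of its exon bases with Polg, and Fanca 10.5% with Zfp276, both on the opposite strand.

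In end joining (4 genes), none passed the test with either siRNA in edgeR, DESeq2 or exactTest, and 0 and 1 were at an unadjusted p under 0.05. Prkdc encodes the catalytic subunit of DNA-PK, and Xrcc5 and Xrcc6 encode the Ku proteins that load it on ends. Prkdc stood at 152, 137 and 133 CPM in controls, at 132, 134, 141 and 138 CPM under siRNA 1 and at 126, 122, 135 and 134 CPM under siRNA 2. Xrcc5 stood at 103, 112 and 111 CPM in controls, at 102, 104, 112 and 107 CPM under siRNA 1 and at 103, 99.7, 101 and 108 CPM under siRNA 2. Both overlapped between groups, although the lowest values of Prkdc were in siRNA 2 replicates 1 and 2. Prkdc differed by −0.05 ± 0.05 with siRNA 1 (adjusted p = 0.72) and −0.12 ± 0.05 with siRNA 2 (adjusted p = 0.14), and Xrcc5 by −0.04 ± 0.05 and −0.08 ± 0.05. Xrcc6 had log2FCs of −0.05 and −0.04, and Lig4 of 0.09 and 0.06.

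In mismatch and single-strand break repair (3 genes), none passed the edgeR test against control, and 1 and 2 were at an unadjusted p under 0.05 with siRNA 1 and siRNA 2. Msh6 stood at 593, 642 and 610.5 CPM in controls, at 563, 539, 582 and 567 CPM under siRNA 1 and at 597, 586, 549 and 577 CPM under siRNA 2. The siRNA 1 libraries of Msh6 lay below the controls, and 1 siRNA 2 library overlapped them. Msh6 differed by −0.13 ± 0.04 with siRNA 1 (adjusted p = 0.075) and −0.09 ± 0.04 with siRNA 2 (adjusted p = 0.18). It was called with siRNA 1 under TMM scaling (adjusted p = 0.043), in DESeq2 (0.025), in exactTest (0.047), with the 2 groups alone (0.042) and without siRNA 2 replicate 3 (0.049). With both combined Msh6 differed by −0.11, was not called in edgeR and was called in DESeq2. Parp1 differed by −0.04 and −0.05. Xrcc1, the scaffold of single-strand break repair, is described next.

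**Figure D3:**
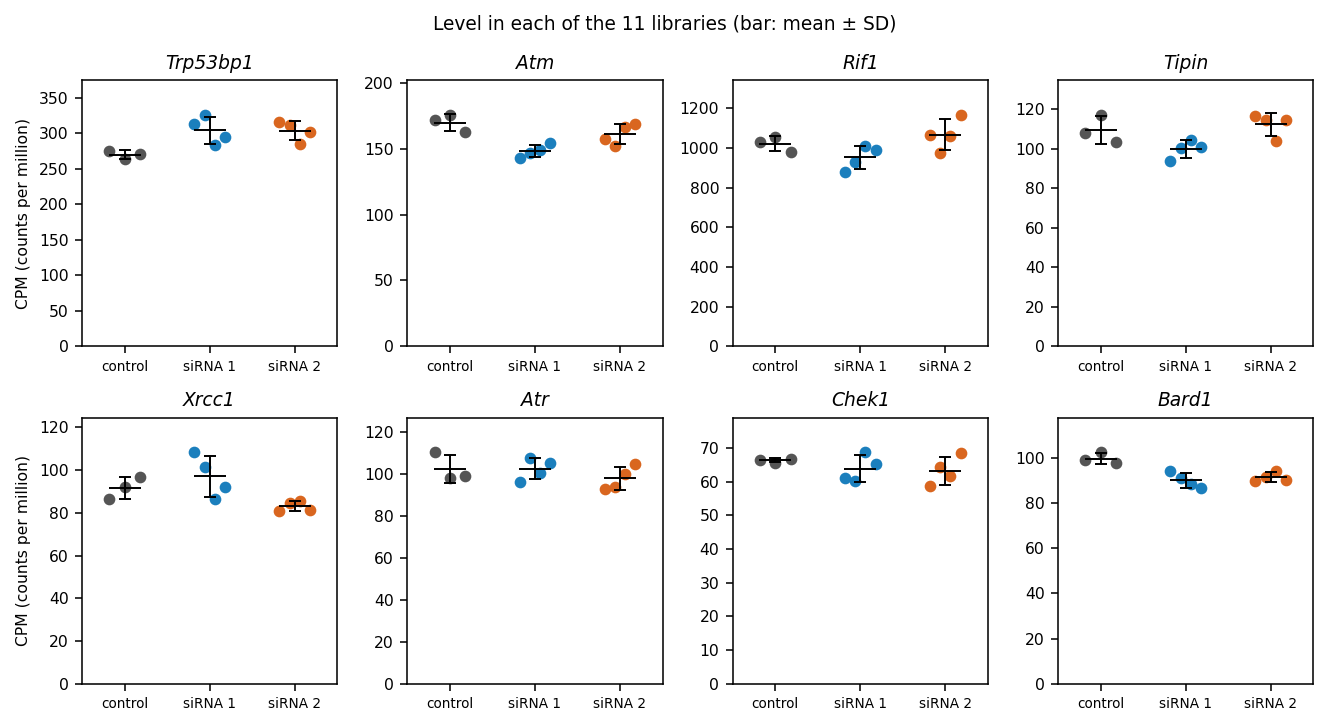
CPM of 8 genes in each of the 11 libraries, from 0, in control siRNA (grey), CMTR1 siRNA 1 (blue) and CMTR1 siRNA 2 (orange), with the mean and SD. The 8 CMTR1 siRNA libraries of Trp53bp1 sit above its controls and those of Bard1 below, the siRNA 1 libraries of Atm sit below its controls, and Atr and Chek1 overlap between groups.

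The siRNAs were also compared with each other. Tipin and Rif1 were higher and Xrcc1 was lower with siRNA 2 than with siRNA 1, which is 3 of 41 genes (7.32%, compared with 7.44% of all genes tested, 4.49% higher and 2.96% lower). At an unadjusted p under 0.05 there were 5 (background 21.1%), and the libraries of 2 genes, Brca2 and Xrcc1, did not overlap (4.88%, background 11.8%). None of the 3 called genes was called against control. Xrcc1 stood at 86.5, 92.01 and 96.8 CPM in controls, at 108, 101, 86.5 and 91.95 CPM under siRNA 1 and at 80.8, 84.5, 85.5 and 81.1 CPM under siRNA 2. All 4 siRNA 2 libraries of Xrcc1 (ENSMUSG00000051768; chromosome 7, 24546289 to 24573440, plus strand) lay below the siRNA 1 and the control libraries. Xrcc1 was 14.4% lower with siRNA 2 than with siRNA 1 (log2FC −0.22 ± 0.06, adjusted p = 0.011), from 0.08 ± 0.06 with siRNA 1 and −0.14 ± 0.06 with siRNA 2 against control. Rif1 (ENSMUSG00000036202; chromosome 2, 52072832 to 52122383, plus strand) was 11.99% higher with siRNA 2 (0.16 ± 0.04, adjusted p = 0.017), from −0.10 ± 0.05 and 0.06 ± 0.05. Tipin (ENSMUSG00000032397; chromosome 9, 64281581 to 64305424, plus strand) was 12.4% higher with siRNA 2 (0.17 ± 0.05, adjusted p = 0.039). The libraries of Rif1 and Tipin overlapped between the siRNAs. All 3 calls were lost without siRNA 1 replicate 1 (adjusted p = 0.085 for Xrcc1, 0.093 for Rif1 and 0.15 for Tipin) or without siRNA 1 replicate 2 (0.061, 0.073 and 0.089). The Rif1 call was also lost without siRNA 2 replicate 4 (0.12). That of Tipin was also lost without siRNA 1 replicate 4 (0.073) or siRNA 2 replicate 1, 2 or 4 (0.12, 0.086 and 0.091) and in DESeq2 (0.083). The other 38 genes did not differ past the threshold, and the interval of the difference lay within 0.3 of 0 in 39 of 41 genes, the exceptions being Xrcc1 (to −0.34) and Wrn (to −0.31).

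**Figure D4:**
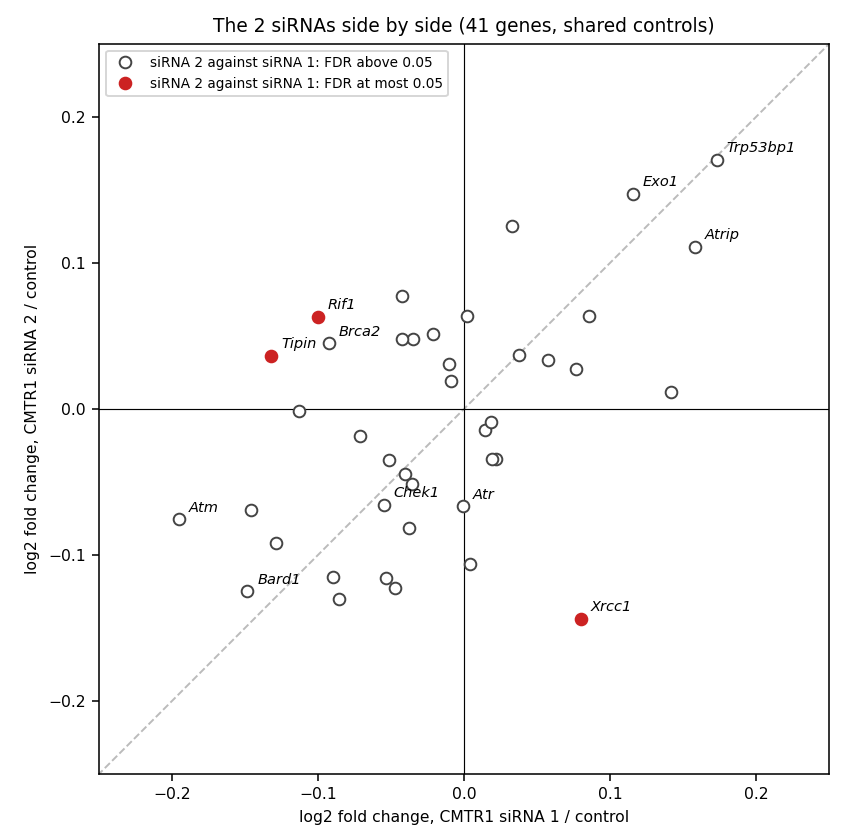
Log2 fold change of each of the 41 genes with CMTR1 siRNA 1 (x axis) and CMTR1 siRNA 2 (y axis), which share their 3 control libraries, with the line of equal change dashed. Rif1, Tipin and Xrcc1 (filled) are at an adjusted p of at most 0.05 between the siRNAs and have opposite signs against control, while Trp53bp1 lies on the line at 0.17.

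The 8 genes with an E2F spelling had a median log2FC of −0.04 with siRNA 1 (range −0.15 to 0.06) and −3.2e-04 with siRNA 2 (−0.12 to 0.05), and none was called. The 23 genes whose window held none had medians of −0.04 and −0.01, and 2 and 1 were called. By position, 7 of the 41 genes (Atm, Atr, Atrip, Chek1, Mre11a, Tipin and Topbp1) are on chromosome 9 (17.1%, compared with 5.77% of genes tested), and 1 of these, Atm, was called against control.

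Beyond the 41 genes, 126 other genes of the same pathways were read, and all passed the filter. With siRNA 1, 0 of these 126 were called in edgeR or DESeq2 and 2 in exactTest (4.67%, 3.24% and 6.22% of all genes tested). At an unadjusted p under 0.05 there were 11 (background 16.8% of all genes). With siRNA 2, 2 rose and 3 fell, with both combined 1 fell, and between the siRNAs 1 was higher and 2 were lower with siRNA 2. In either direction, 9.72%, 6.91% and 7.44% of all genes tested were called in these comparisons. The median log2FC of the 126 was −6.7e-04 with siRNA 1 and −0.01 with siRNA 2. None of 15 break signalling genes and none of 24 recombination genes was called in any of the 4 comparisons. At an unadjusted p under 0.05 there were 0 to 2 and 2 to 5 in each comparison (background 16.8% to 23.2% of all genes). DESeq2 called none, and exactTest called 1 recombination gene with siRNA 1. The list was written with earlier results of these data known.

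Parp2, a relative of Parp1, was at 73.9 ± 0.337, 69.1 ± 4.08 and 61.4 ± 2.53 CPM in controls, with siRNA 1 and with siRNA 2 (SD, n = 3, 4 and 4), and fell with siRNA 2 (−0.27 ± 0.06, adjusted p = 0.0026). Xpc, which recognises helix-distorting damage, fell with siRNA 2 (−0.33 ± 0.08, adjusted p = 0.0045) and was lower than with siRNA 1 (−0.29 ± 0.07, adjusted p = 0.011; 0.058 without siRNA 1 replicate 2). Gtf2h1, a subunit of TFIIH, was higher with siRNA 2 than with siRNA 1 (0.20 ± 0.05, adjusted p = 0.0065). The calls of Parp2 and Xpc with siRNA 2 and of Gtf2h1 between the siRNAs held in all 20 settings run. Those of Bod1l (0.16 with siRNA 2), Rev1 (0.15 with siRNA 2), Ung (−0.18 with siRNA 2) and Mutyh (−0.27 between the siRNAs) were lost in 5, 15, 5 and 4 of the other 19 settings, with adjusted p of at most 0.22.

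DNA damage and replication stress can stabilise p53, so genes known as its targets were read beside the repair genes (19 of 20 listed were tested). With siRNA 1, 4 rose and 1 fell, and with siRNA 2, 8 rose and none fell (4.67% and 9.72% of all genes were called, 2.71% and 6.17% as rises). The median log2FCs were 0.12 and 0.14, compared with 0.02 and 0.03 for all genes tested. The counts with siRNA 1 went from 5 to 3 with TMM scaling and in DESeq2, and those with siRNA 2 from 8 to 4 in DESeq2. They were 3 without control replicate 3 or siRNA 1 replicate 2, and 4 without control replicate 3 or siRNA 2 replicate 1. Cdkn1a, which encodes the CDK inhibitor p21, went from 40.7 ± 1.82 CPM in controls to 57.5 ± 3.73 with siRNA 1 (0.50 ± 0.07, adjusted p = 1.6e-05) and 53.9 ± 5.22 with siRNA 2 (0.41 ± 0.07, adjusted p = 1.9e-04). Its siRNA libraries did not overlap the controls, and both calls held in all 20 settings. Plk2, a kinase, rose with siRNA 1 (0.33 ± 0.07, adjusted p = 0.0014) and siRNA 2 (0.25 ± 0.07, adjusted p = 0.012; 0.17 without control replicate 3, and 0.051 both without siRNA 2 replicate 1 and in DESeq2). Perp, Pmaip1 and Eda2r rose with siRNA 2 (0.61, 0.42 and 0.32) and were not called with siRNA 1 (0.12, 0.28 and 0.15). The difference between the siRNAs passed the test for Perp (0.49, adjusted p = 1.7e-04) but not for Pmaip1 or Eda2r (adjusted p = 0.36 and 0.071). Ccng1, cyclin G1, fell with siRNA 1 (−0.32 ± 0.05, adjusted p = 2.4e-05) and rose with siRNA 2 (0.14 ± 0.05, adjusted p = 0.046), a call made in 6 of 20 settings. It was higher with siRNA 2 than with siRNA 1 by 0.47 ± 0.05 (adjusted p = 8.6e-10).

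S-phase and mitotic genes were read to see whether the cell cycle makeup moved with the repair genes. Of 21 S-phase genes none was called with siRNA 1 (2 at an unadjusted p under 0.05, none in DESeq2 or exactTest). With siRNA 2, 2 fell, E2f1 (−0.28 ± 0.08, adjusted p = 0.013) and the licensing factor Cdt1 (−0.18 ± 0.05, adjusted p = 0.014), while DESeq2 called 5. Among all 16073 genes tested, 571 fell with siRNA 2, and DESeq2 called 958 in either direction. Of 20 genes of G2 and M phase none was called with either siRNA in edgeR, DESeq2 or exactTest, and 0 and 1 were at an unadjusted p under 0.05. The median log2FC was −0.04 and −0.08 for the S-phase genes and 0.02 and 0.03 for the G2 and M genes.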

How the data were processed

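The authors deposited counts: a whole number of reads per Ensembl gene for each of 11 RNA-seq libraries, made from ribosomal RNA-depleted total RNA with a directional kit. Per the methods and the submitters' processing notes, Cutadapt removed adaptors, STAR placed the reads on GRCm38/mm10, Picard took out duplicates and featureCounts made the gene counts; strand use in counting is not given in the sources used here. Summary lines in 10 files are of the kind HTSeq writes, so the counter is uncertain. Removal of duplicates can lower the counts of short, abundant genes most. These lines (39.3% to 44.3% of reads in no gene, 0.963% to 1.05% ambiguous) were left out of totals, which ranged from 6738478 to 8382318.

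Identifiers were matched to GENCODE M21 (54809 of 54838). Fam175a was matched as Abraxas1. Genes above 1 CPM in at least 4 libraries (16073) were fitted with edgeR 4.0.16 in R 4.3.3, by the quasi-likelihood test on a model of 3 groups, with library totals as in the methods and Benjamini-Hochberg adjustment over all genes tested. A gene was called at an adjusted p of at most 0.05; rose, fell and changed refer to called genes. Intervals are the estimate ± 1.96 SE. The 41 members and all lists were chosen with earlier results of these data known, and each list is given by counts and medians only. Some genes of the wider repair list are not reported here, and its counts leave them out, calls included. Values per library are printed for members called in a contrast, the member of lowest unadjusted p (both siRNAs combined) and of highest level per kb in each group, and Chek1, Atr and Atm, with Exo1 added after its values were seen; of other lists, called genes only, at most 6 per list.

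Alternatives were TMM factors (0.986 to 1.012), DESeq2 1.42.0, exactTest, a looser filter and none, the groups compared alone, replicate number as a block, library sizes without Gm26917 (4.86% to 6.34% of counts), and each library left out. Where 1 control is left out the spread is pooled over all groups. None of the replicate pairs within a group agreed within sampling noise (chi-square per degree of freedom 1.29 to 2.82). In simulated counts of 16073 genes, the siRNA 1 fit called 90 of the 100 genes set to differ 2-fold, and 60 of the 100 set to differ 1.41-fold; of 161 calls 11 were genes left as they were. Promoter windows are those of RefSeq on GRCm38.p6. Tables and figures were made with Python 3.11.15, numpy 2.4.6, pandas 2.3.3 and matplotlib 3.10.9.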

Additional observations from a re-analysis of the deposited data

Results flagged for a closer look

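Among the 41 genes, 82 sets of 4 libraries (each gene with siRNA 1 and with siRNA 2) were searched for a library standing apart by Dixon's criterion, and 3 sets had one. Chance alone marks about 1 in 20 such sets. Clspn, the adaptor of CHK1 activation, was at 107 CPM in siRNA 1 replicate 4, with the other 3 libraries between 96.7 and 97.6 CPM. Smarcal1, the fork remodeller, was at 44.6 CPM in the same library, with the others between 40.96 and 41.3 CPM. Tipin was at 104 CPM in siRNA 2 replicate 3, with the others between 115 and 116 CPM.

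The siRNAs differed from each other, by the edgeR test of siRNA 2 against siRNA 1, in Tipin (log2FC 0.17), Rif1 (0.16) and Xrcc1 (−0.22). Of the other repair genes listed they differed in Mutyh (−0.27), Gtf2h1 (0.20) and Xpc (−0.29), and of the p53 target genes in Ccng1 (0.47) and Perp (0.49). The cause of these differences was not tested.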

How the results depend on the processing

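The counts of called genes among the 41 (2 with siRNA 1, 1 with siRNA 2, 1 with both combined and 3 between the siRNAs) moved with the setting. With siRNA 2 the count was 0 in DESeq2 (5.96% of all genes tested were called). With both combined it was 4 with TMM scaling (6.73% of all genes) and 4 in DESeq2 (4.67%). The DESeq2 genes were Atm, Trp53bp1, Bard1 and Msh6. It was 2 with the replicate block (7.12%) and 2 without the most counted gene in the library sizes (6.90%). Leaving out 1 library at a time gave 0 to 3 with siRNA 1, 0 to 2 with siRNA 2, 0 to 2 with both and 0 to 3 between the siRNAs. The cause was not tested. Genes close to 0 changed sign when 1 library was left out: Atr with siRNA 1 (log2FC −0.032 to 0.056), Prkdc with siRNA 1 (−0.087 to 0.012), Tipin with siRNA 2 (−0.0038 to 0.088), Brca1 with siRNA 2 (−0.045 to 0.022), and Fanci with siRNA 1 (−0.035 to 0.014) and siRNA 2 (−0.0069 to 0.042). Fanci also changed sign with the replicate block (0.0088 with siRNA 1), with TMM scaling (−0.0057 with siRNA 2) and in DESeq2 (−0.0098 with siRNA 2), and none of these values was called. Recomputed values cover 16 of the 41 genes, those given by library. Of these 738 values, 684 kept their direction and side of the threshold, 26 lost and 14 gained a call, and 14 changed sign. Of 507 for 14 other genes (Cmtr1 and genes of the lists), 446 kept both and 61 lost the call.

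Over all genes tested, DESeq2 called 521, 958, 750 and 738 genes in the 4 comparisons, against 751, 1562, 1110 and 1196. The groups compared alone gave 489 for both combined. The lowest counts without 1 library were 355 (control replicate 2), 807 (control replicate 3), 499 (control replicate 2) and 724 (siRNA 1 replicate 2). Replicate numbers were shared between groups, but same-numbered libraries did not deviate together (mean r = 0.011 over 10 pairs, and −0.0036 over 30 other pairs), so the block was not taken as a pairing; with it the counts were 2, 1, 2 and 3. The exactTest alternative was not run for both combined. Depth limits Wrn (98 reads at the lowest) most.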
